A study of Mus musculus with 6 samples.

Results

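NK-type receptors are surface proteins first described on natural killer (NK) cells that activated CD8+ T cells can also carry. The genes described here were Klrd1, Klrc1, Klrc2, Klrk1, Klrg1, Klrb1c and Ncr1, together with Nkg7, which encodes a membrane protein of cytotoxic granules. They were chosen by gene symbol, and 8 of 8 were present among the 24589 symbols of the table. The data were bulk RNA-seq libraries of primary wild-type mouse CD8+ T cells that had been stimulated through CD3 and CD28. Cells of the TVA group then received 20 µM trans-vaccenic acid, a trans fatty acid of ruminant fat, for 24 h, and cells of the DMSO group received the solvent for the same time. Each group had 3 libraries (n = 3), which gave 6 together. The study's methods describe activation in culture of cells taken from spleen and lymph nodes by magnetic beads, and no unstimulated cells were part of this comparison.

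CD94, encoded by Klrd1, pairs with a protein of the NKG2 family. The pair with NKG2A (Klrc1) is inhibitory and the pair with NKG2C (Klrc2) is activating, and both bind the non-classical MHC class I molecule Qa-1. NKG2D (Klrk1) is an activating receptor that binds stress-induced ligands and signals through the adaptors DAP10 (Hcst) and, in mice, DAP12 (Tyrobp). KLRG1 is an inhibitory receptor of terminally differentiated effector cells that binds cadherins, whereas NK1.1 (Klrb1c) and NKp46 (Ncr1) are used to mark NK cells. NKG7 takes part in the release of cytotoxic granules.

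TPM values, which scale transcript abundance for length and library total, place genes of different length on one scale, and the 8 genes fell into an expressed and a nearly silent group. By mean TPM over the 6 libraries, Nkg7 ranked 112, Klrd1 1898, Klrc1 3310 and Klrk1 6241 among the 24589 symbols. The other 4 genes ranked from 11571 (Klrc2) to 12630 (Klrg1) and were below 1 TPM in every library. In each library Nkg7 held 89.0 to 91.0% of the TPM of the 8 genes. The order Nkg7, Klrd1, Klrc1, Klrk1 was the same in each of the 6 libraries, with no overlap between neighbours in that order. Among the 4 low genes Klrc2 was above the highest Klrg1 value in each library, and all other pairs overlapped.

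**Figure D1:**
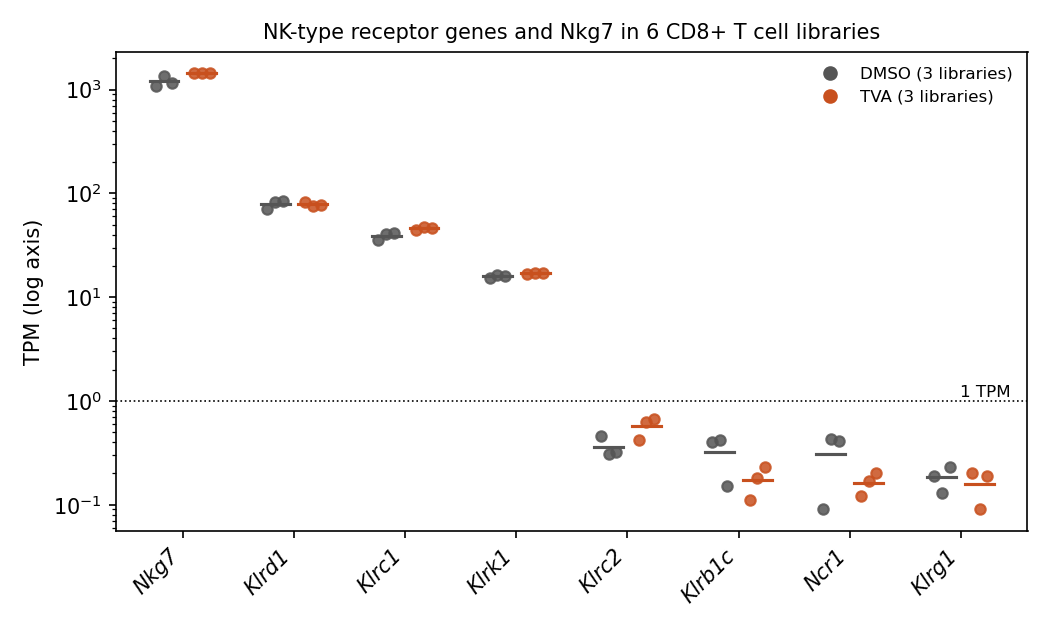
TPM on a log axis for the 8 genes, with a point for each of the 3 DMSO and 3 TVA libraries and a bar at each group mean. Nkg7 lies at 1095.05 TPM or above, Klrd1, Klrc1 and Klrk1 lie between 15.28 and 85.01 TPM, and the other 4 genes lie below the dotted line at 1 TPM.

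Expression was tested for the 10866 genes with at least 1 TPM in at least 3 libraries, using limma on log2(TPM + 1) and each adjusted p is a Benjamini-Hochberg value over those genes. This scale compresses differences of genes at a few TPM or less. Of the 8 genes, 4 were tested, and 0 of these passed an adjusted p of 0.05, against 8.51% of all genes tested (925 of 10866). At an unadjusted limma p of 0.05, 2 of the 4 passed (Klrc1 and Nkg7), against 31.8% of all genes. In 3 of the 4 (Klrc1, Klrk1 and Nkg7) every TVA value was above every DMSO value, which held for 27.3% of all genes. The median log2 change of all genes tested was 0.039. The sources do not say whether libraries of a group came from separate mice or cultures, so p-values measure the spread between these libraries only, which may be technical.

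The libraries were not equally alike. DMSO replicate 2 lay at 1.23 on the first principal component, which held 59.1% of the variance, whereas the other DMSO libraries lay at -18.2 and -12.8 and the TVA libraries at 8.8 to 10.8. Deviations of genes from their mean over libraries also followed transcript GC content, with a Spearman correlation across genes of 0.588 in DMSO replicate 1, near 0 in the other DMSO libraries, and -0.157 to -0.412 under TVA. The part of either feature in the results was not tested, and values under other settings stand beside the results whose call they end.

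The upstream sequences of Nkg7, Klrc1 and Klrk1 are shown because these are the genes whose groups did not overlap. They are the bases before the RefSeq transcription start (GRCm38.p6), 5′ to 3′ on the strand of the gene, at chr7:43436888-43437072 (plus strand, ending 66 bases before the start, where an annotated Nkg7 transcript begins), chr6:129678974-129679223 (minus strand) and chr6:129623865-129624114 (minus strand). The Klrc1 sequence lies inside the annotated span of Klrc1, which has a transcript that starts further upstream. Capitals mark the RUNX motif, TGTGGT or its reverse complement ACCACA.
Nkg7: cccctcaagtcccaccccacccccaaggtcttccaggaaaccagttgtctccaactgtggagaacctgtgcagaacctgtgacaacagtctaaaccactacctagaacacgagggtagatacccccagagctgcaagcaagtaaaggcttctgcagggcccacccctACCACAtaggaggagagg
Klrc1: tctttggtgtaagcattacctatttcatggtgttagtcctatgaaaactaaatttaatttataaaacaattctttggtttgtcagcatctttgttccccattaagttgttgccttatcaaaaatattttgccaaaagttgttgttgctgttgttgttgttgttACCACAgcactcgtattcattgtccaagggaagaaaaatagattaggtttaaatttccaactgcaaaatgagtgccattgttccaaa
Klrk1: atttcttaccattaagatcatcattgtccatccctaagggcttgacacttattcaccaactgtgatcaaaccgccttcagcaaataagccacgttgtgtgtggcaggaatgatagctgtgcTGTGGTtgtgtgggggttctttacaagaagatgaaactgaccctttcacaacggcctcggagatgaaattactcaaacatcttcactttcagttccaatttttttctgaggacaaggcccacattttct

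Promoter entries were held for 6 of the 8 genes (Klrk1, Klrc1, Klrc2, Klrb1c, Ncr1 and Nkg7). RUNX proteins are transcription factors of CD8+ T cells and NK cells, and their motif was present within 250 bases before the start in 6 of 6 genes, against 14% of 32851 promoters of that length searched on both strands. Its first base lay 83 bases before the start in Nkg7, 87 in Klrc1, 129 in Klrk1 and 89 in Klrb1c, and Klrc2 and Ncr1 held 2 copies each. A T-box motif, TCACACC, the kind of sequence bound by T-bet and EOMES, was found in Nkg7 only (13 bases before the start), against 3.33% of promoters. The short cAMP response element TGACG was found in Klrc2 only, against 17.8% of promoters, and the full element TGACGTCA, which contains the short form, in none of the 6 genes, against 1.55% of promoters. The T-box match of Nkg7 and the TGACG and RUNX matches of Klrc2 lie inside annotated transcripts of those genes that begin further upstream. Such matches are letters in a window, and no binding was measured.

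Klrd1, the shared CD94 chain, was the most abundant of the receptor genes. It lies at chr6:129588092-129598775 (plus strand). Its TPM was 71.14, 82.46 and 85.01 in the DMSO libraries and 81.89, 75.97 and 77.91 in the TVA libraries. The TVA values fell inside the DMSO range. The means were 79.5 ± 7.38 and 78.6 ± 3.02 TPM (SD, n = 3 libraries per group), and the log2 change was -0.01 with a 95% interval of -0.17 to 0.15 (limma, SE 0.069, adjusted p = 0.905). Changes of either sign within that interval remain compatible with these libraries. The sign of the estimate turned when DMSO replicate 2, DMSO replicate 3 or TVA replicate 2 was left out (0.014, 0.036 and 0.01). With a GC correction the change was -0.12 (limma adjusted p = 0.195).

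Klrc1 encodes NKG2A, the inhibitory partner of CD94, and lies at chr6:129666015-129682852 (minus strand). It was at 35.48, 40.66 and 41.57 TPM in the DMSO libraries and at 44.77, 47.76 and 46.15 TPM in the TVA libraries. Every TVA library was above the highest DMSO library. The means were 39.2 ± 3.29 and 46.2 ± 1.5 TPM (SD, n = 3), a ratio of 1.18, with a log2 change of 0.23 (95% interval 0.09 to 0.38, SE 0.064). In the limma fit across all genes the adjusted p was 0.0596, which did not pass the threshold. Without DMSO replicate 2 it was 0.26 with an adjusted p of 0.0364 in limma, and with a GC correction it was 0.16.

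Klrc2, which encodes the activating partner NKG2C, was far lower than Klrc1. It was at 0.46, 0.31 and 0.32 TPM in the DMSO libraries and at 0.42, 0.62 and 0.67 TPM in the TVA libraries. The groups overlapped, and the gene was below the filter and not tested. Reads of these genes are hard to separate: of the 50-base stretches in Klrc1 transcripts, 38.6% also occurred in Klrc2 or Klrc3, and 29.4% of those in Klrc2 occurred in Klrc1 or Klrc3. The individual values are therefore uncertain, whereas the sum of Klrc1, Klrc2 and Klrc3 was 36.2, 41.1 and 42.0 TPM in the DMSO libraries and 45.2, 48.4 and 47.1 TPM in the TVA libraries. Klrc1 made up 97.9 to 99.1% of that sum.

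The balance between CD94 and NKG2A transcripts was nearly constant among the DMSO libraries. The ratio of Klrd1 to Klrc1 TPM was 2.01, 2.03 and 2.04 in the DMSO libraries and 1.83, 1.59 and 1.69 in the TVA libraries. Every TVA ratio was below every DMSO ratio. The means were 2.03 ± 0.02 and 1.7 ± 0.12 (SD, n = 3), and a two-sided exact permutation test gave p = 0.1, the smallest value that 3 against 3 libraries allow (adjusted p = 0.2 over the 4 ratios compared). The ratio of Klrc1 to Klrk1 was 2.32, 2.48 and 2.58 against 2.69, 2.8 and 2.68, again without overlap (exact permutation p = 0.1, adjusted p = 0.2). The ratio of Klrc1 to Klrc2 was 77.1, 131.2 and 129.9 against 106.6, 77.0 and 68.9, with overlap (exact permutation p = 0.2, adjusted p = 0.267).

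Klrk1 encodes NKG2D and lies at chr6:129610323-129623903 (minus strand). Its TPM was 15.28, 16.4 and 16.11 in the DMSO libraries and 16.63, 17.04 and 17.24 in the TVA libraries. The groups did not overlap, but the gap between them was small. The means were 15.9 ± 0.581 and 17 ± 0.311 TPM (SD, n = 3), with a log2 change of 0.09 (95% interval -0.02 to 0.19, SE 0.045, limma adjusted p = 0.229). With a GC correction the change was -0.0089.

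Of the NKG2D adaptor genes, Tyrobp passed the test and Hcst did not. Hcst, which encodes DAP10, was at 42.63, 54.66 and 54.76 TPM in the DMSO libraries and at 46.69, 44.95 and 48.66 TPM in the TVA libraries. These values overlapped (log2 change -0.11, limma adjusted p = 0.464), and the ratio of Hcst to Klrk1 gave an exact permutation p of 0.3. Tyrobp, which encodes DAP12, rose from 9.05, 9.82 and 7.42 to 10.94, 15.3 and 14.49 TPM, a log2 difference of 0.57 (SE 0.134, adjusted p = 0.0439 in limma). This call was lost in 7 of 14 other settings, among them the replicate block (adjusted p = 0.0644 in limma) and the fits without DMSO replicate 1 or 3 or TVA replicate 2 or 3 (0.0548, 0.106, 0.168 and 0.156). Myeloid cells also express Tyrobp, and the summed TPM of 7 myeloid marker genes was 36.9 to 39.9 in the DMSO libraries and 47.9 to 50.3 in the TVA libraries. Of these markers 5 were tested and 1 passed the threshold (Lyz2, which encodes lysozyme and was higher under TVA). Every TVA value was above every DMSO value in 4 of the 5 (Lyz2, Csf1r, Itgam and Cd14), against 27.3% of all genes tested. The same held for Fcgr1 and Adgre1, which were below 1 TPM in every library and not tested. The groups of Spi1 overlapped. The part of myeloid RNA in the Tyrobp change was not tested.

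Most ligand genes of these receptors were too low to be tested. Of 17 ligand genes in the table, 7 were tested, 1 rose and 0 fell, with a median log2 change of 0.064. Ulbp1, which encodes the NKG2D ligand MULT1, rose from 36.64, 39.09 and 39.16 to 42.27, 44.38 and 44.15 TPM, a log2 difference of 0.18 (SE 0.044, adjusted p = 0.0458 in limma). That call held in only 3 of 14 other settings. It was lost with a GC correction (log2 difference 0.11, limma adjusted p = 0.0573), with both other scalings (0.0999 and 0.102), with the replicate block (0.0673) and when any one of the 5 libraries besides DMSO replicate 2 was dropped (0.0521 to 0.186). The Raet1 genes in the table were below 1 TPM in every library, and the Qa-1 gene H2-T23 was at 629.98 to 650.94 TPM under DMSO and 658.95 to 687.34 TPM under TVA, without overlap but short of the threshold (limma adjusted p = 0.244).

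Klrg1, at chr6:122270596-122282833 (minus strand), was at 0.19, 0.13 and 0.23 TPM in the DMSO libraries and at 0.2, 0.09 and 0.19 TPM in the TVA libraries. The NK1.1 gene Klrb1c, at chr6:128778485-128788641 (minus strand), was at 0.4, 0.42 and 0.15 against 0.11, 0.18 and 0.23 TPM. The NKp46 gene Ncr1, at chr7:4337715-4345184 (plus strand), was at 0.09, 0.43 and 0.41 against 0.12, 0.17 and 0.2 TPM. In all 3 genes the groups overlapped, and none was tested because none reached 1 TPM. Klrb1c overlaps another gene on the same strand and shares 17% of its 50-base stretches with other genes, so its value is uncertain. TPM values keep no trace of sequencing depth, so no detection limit can be given for these genes.

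Ncr1 and Klrb1c were among the low members of a list of NK cell markers whose levels differed widely. Of 14 NK cell markers, Ncr1, Klrb1c, Klra4, Klra8 and Itga2 were below 1 TPM in every library. The other 9 reached 1 TPM in at least 3 libraries, with the highest means for Eomes (27.2 TPM), Fcer1g (16.4 TPM) and Tyrobp (11.2 TPM). The summed TPM of the 14 was 60.6 to 65.4 under DMSO and 74.9 to 77.4 under TVA. Of the 9 tested, 2 rose (Eomes and Tyrobp) and 3 fell (Gzma, Klrb1b and Klra9). The 8 markers of CD8+ T cells summed to 2213.2 to 2383.3 TPM under DMSO and 2471.7 to 2508.4 TPM under TVA. In bulk libraries fewer cells with a transcript and less transcript per cell cannot be told apart.

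**Figure D2:**
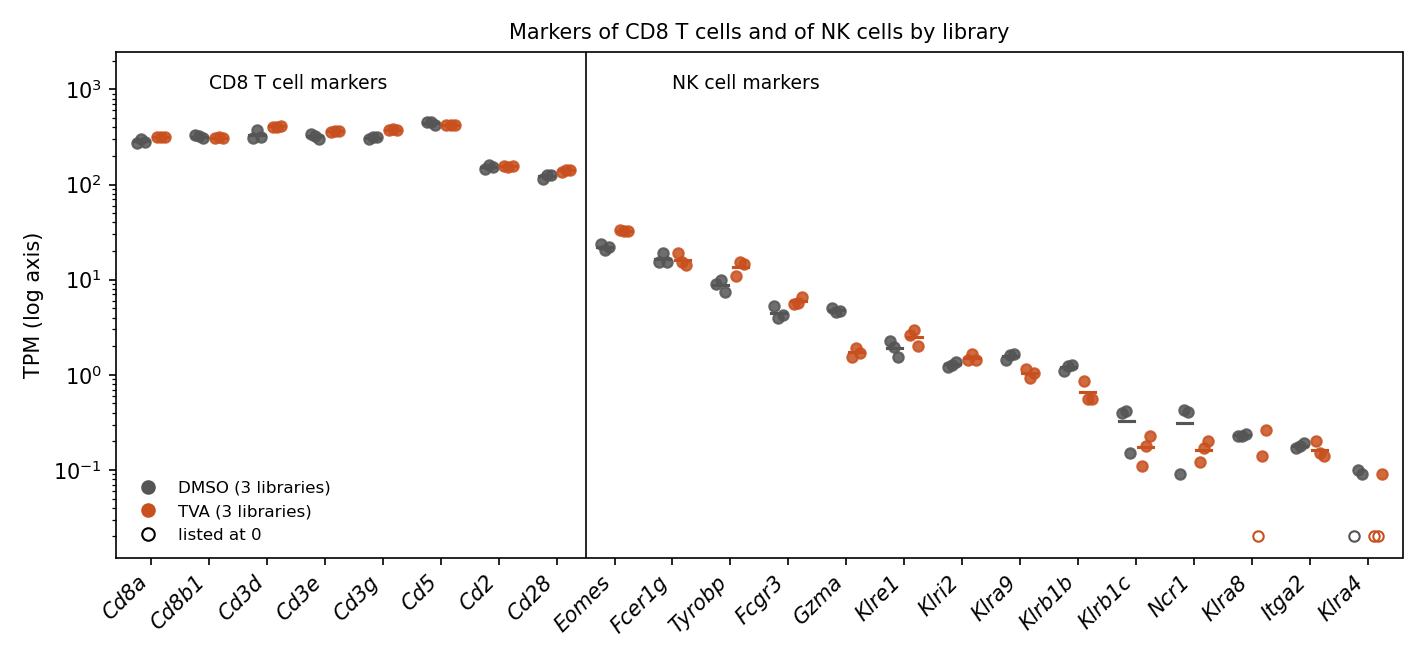
TPM on a log axis for 8 CD8+ T cell markers and 14 NK cell markers, with a point for each of the 3 DMSO and 3 TVA libraries, a bar at the group mean and open points for values listed at 0. CD8+ T cell markers lie above all NK cell markers, and Ncr1, Klrb1c, Klra4, Klra8 and Itga2 lie below 1 TPM in every library.

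Nkg7 was the most abundant of the 8 genes and lies at chr7:43437138-43438246 (plus strand). It was at 1095.05, 1350.47 and 1162.77 TPM in the DMSO libraries and at 1435.16, 1434.33 and 1437.35 TPM in the TVA libraries. Every TVA library was above the highest DMSO library, and the TVA libraries were almost equal. The means were 1202.8 ± 132.3 and 1435.6 ± 1.56 TPM (SD, n = 3), a ratio of 1.19, with a log2 change of 0.26 (95% interval 0.09 to 0.43, SE 0.073). In the limma fit across all genes the adjusted p was 0.0624, which did not pass the threshold. DMSO replicate 2 was the DMSO library nearest to the TVA values, and without it the change was 0.35 with an adjusted p of 0.00151 in limma.

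**Figure D3:**
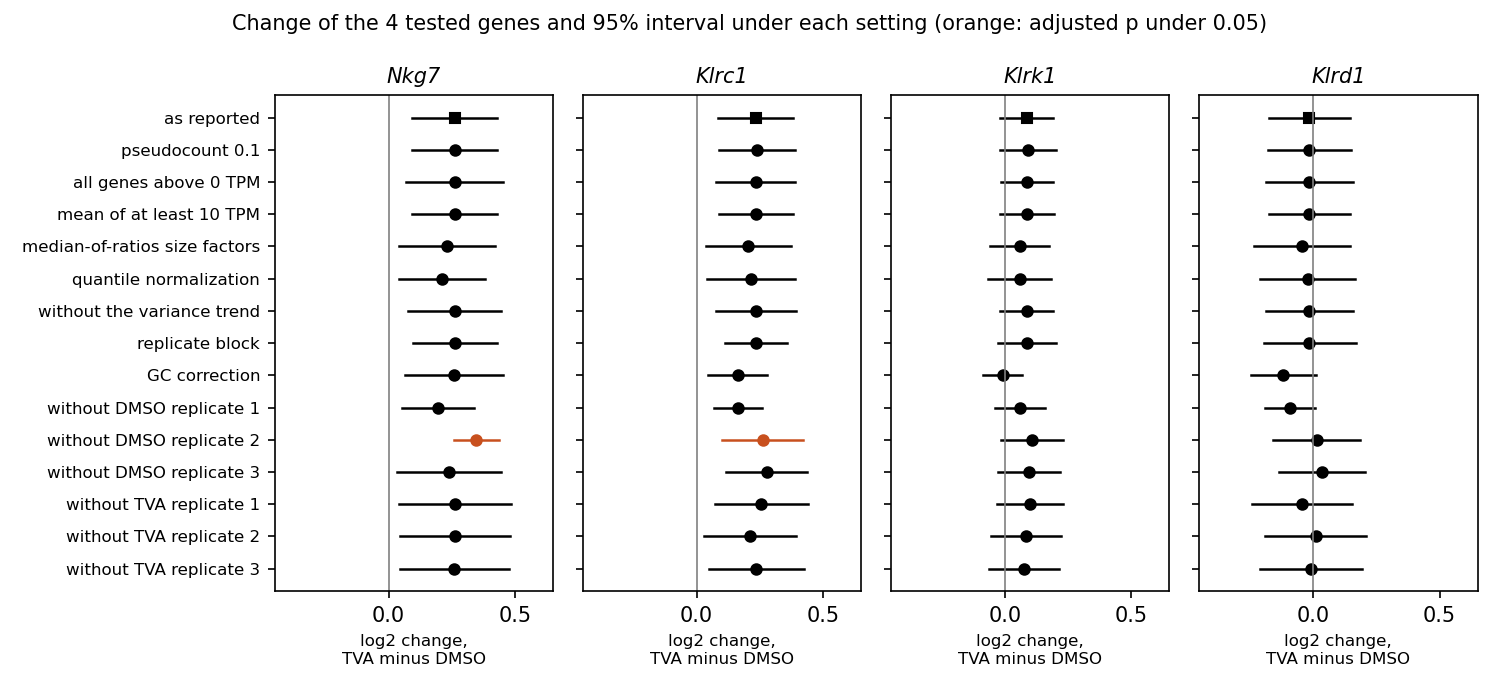
Log2 change (TVA minus DMSO) of Nkg7, Klrc1, Klrk1 and Klrd1 with its 95% interval, as reported (square) and under 14 other settings (points), with orange for an adjusted p under 0.05. Nkg7 and Klrc1 lie above 0 in each setting and pass the threshold only without DMSO replicate 2, whereas Klrk1 and Klrd1 lie close to 0.

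Across the 6 libraries, log2(TPM + 1) values of Klrc1, Klrk1 and Nkg7 varied together (Pearson r of 0.958 for Klrc1 with Klrk1, 0.924 for Klrk1 with Nkg7 and 0.872 for Klrc1 with Nkg7). Klrd1 followed them less closely, with r of 0.25 to 0.328. These are descriptions over 6 libraries that share the difference between groups and the same libraries. The genes most like each were Cox4i1 and Far2 for Klrd1 (r of 0.9745 and 0.9719), Ccser2 and Polr3k for Klrc1 (both 0.9973), Ccz1 and Zfp866 for Klrk1 (0.9984 and 0.9968), and Ppia and Sdhd for Nkg7 (0.9985 and 0.9971).

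Genes of the same cytotoxic granules went both ways. Of 15 tested genes beside Nkg7, 2 rose and 3 fell, with a median log2 change of -0.053. Prf1, which encodes the pore-forming protein perforin, rose by 0.35 on the log2 scale (52.2 ± 6.07 to 66.4 ± 2.05 TPM, n = 3, limma adjusted p = 0.0376), and Ctsc, whose protease activates granzymes, rose by 0.18 (adjusted p = 0.0423). The Ctsc call held in only 3 of 14 other settings and was lost with a GC correction (0.11, limma adjusted p = 0.0879), with both other scalings (0.085 and 0.0864), with the replicate block (0.0776) and when any one of the 5 libraries besides DMSO replicate 2 was dropped (0.0516 to 0.181). Leaving out DMSO replicate 3, or any one of the TVA libraries, ended the Prf1 call (limma adjusted p of 0.0921 to 0.154). So did the replicate block (limma adjusted p of 0.05 after rounding, not under the threshold) and all genes above 0 TPM (0.0751). Gzma, which encodes granzyme A, fell from 4.79 ± 0.215 to 1.72 ± 0.187 TPM, a log2 difference of -1.09 (adjusted p = 0.000644 in limma). Gzmc, which encodes granzyme C, fell from 14.9 ± 1.93 to 6.93 ± 0.156 TPM (log2 change -1.0, adjusted p = 0.00178), and Stx11, a syntaxin of granule release, fell by 0.35 (adjusted p = 0.0228). The Stx11 call was lost with the replicate block (limma adjusted p = 0.0612) and with all genes above 0 TPM (0.0503). It was also lost when DMSO replicate 3 or any one of the TVA libraries was left out (0.0717 to 0.111). Gzmb, the granzyme with the highest TPM, lay between 2978.41 and 3206.45 TPM in the DMSO libraries and between 3068.95 and 3149.74 TPM in the TVA libraries.

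Other receptors of the lectin-like family were low. Of 20 in the table, 12 were below 1 TPM in every library, 8 were tested, 0 rose and 2 fell, with a median log2 change of 0.003. Klrb1b, an inhibitory receptor of the NK1.1 family, fell from 1.09, 1.24 and 1.28 to 0.86, 0.56 and 0.56 TPM, a log2 difference of -0.41 (adjusted p = 0.0461 in limma). Klra9, a Ly49 receptor, fell from 1.42, 1.63 and 1.64 to 1.14, 0.92 and 1.05 TPM, a log2 difference of -0.33 (adjusted p = 0.0483 in limma). With a pseudocount of 0.1 the differences were -0.8 for Klrb1b and -0.55 for Klra9, and in TPM the ratios of means were 0.548 and 0.663. Klrb1b passed in 4 and Klra9 in 3 of 13 other settings, and both calls were lost with the replicate block (limma adjusted p = 0.0851 and 0.0893). Klrb1b was lost when any one of the 5 libraries besides DMSO replicate 2 was dropped (0.0549 to 0.173), and Klra9 when any one library was left out (0.0505 to 0.182). Of their 50-base stretches, 27.2% and 31.5% also occurred in other genes, so both values are uncertain.

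Of 10 tested receptors of the nectin, SLAM and related families, 1 rose and 1 fell, with a median log2 change of -0.005. Crtam, a nectin-like receptor of activated CD8+ T cells, rose from 240.15, 240.02 and 231.36 to 296.81, 303.11 and 310.48 TPM, a log2 difference of 0.35 (SE 0.036, adjusted p = 0.00344 in limma). Slamf6, a self-binding receptor of the SLAM family, fell from 26.05, 27.75 and 26.89 to 19.79, 20.56 and 20.07 TPM, a log2 difference of -0.40 (SE 0.043, adjusted p = 0.00415 in limma). Both gene changes were larger than those of the 4 tested genes described above, and neither pair of groups overlapped.

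Among 15 tested transcription factors of effector cells, 1 rose and 2 fell, with a median log2 change of 0.017. Eomes, a T-box factor of CD8+ T cells and NK cells, rose from 23.45, 20.42 and 21.82 to 32.9, 32.42 and 32.07 TPM, a log2 difference of 0.55 (SE 0.054, adjusted p = 0.00312 in limma). Id3, an inhibitor of E proteins, fell from 172.18, 135.94 and 161.11 to 86.13, 82.81 and 84.05 TPM, a log2 difference of -0.88 (SE 0.08, adjusted p = 0.00239 in limma). Stat5a, which acts downstream of IL-2 and IL-15, fell by 0.38 on the log2 scale (limma adjusted p = 0.0159). Of 13 cytokine receptor genes, 2 rose (Il21r by 0.26 and Il12rb2 by 0.28 on the log2 scale, limma adjusted p = 0.0162 and 0.0205) and 0 fell, with a median log2 change of 0.027. The calls of Stat5a and Il21r were lost when any one TVA library was left out (limma adjusted p of 0.0723 to 0.0949). Il12rb2 was lost with the replicate block (limma adjusted p = 0.053) and without DMSO replicate 3 or TVA replicate 2 or 3 (0.0594, 0.111 and 0.11). Of 17 tested signalling partners 1 rose (Tyrobp) and 0 fell, with a median of -0.025.

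**Figure D4:**
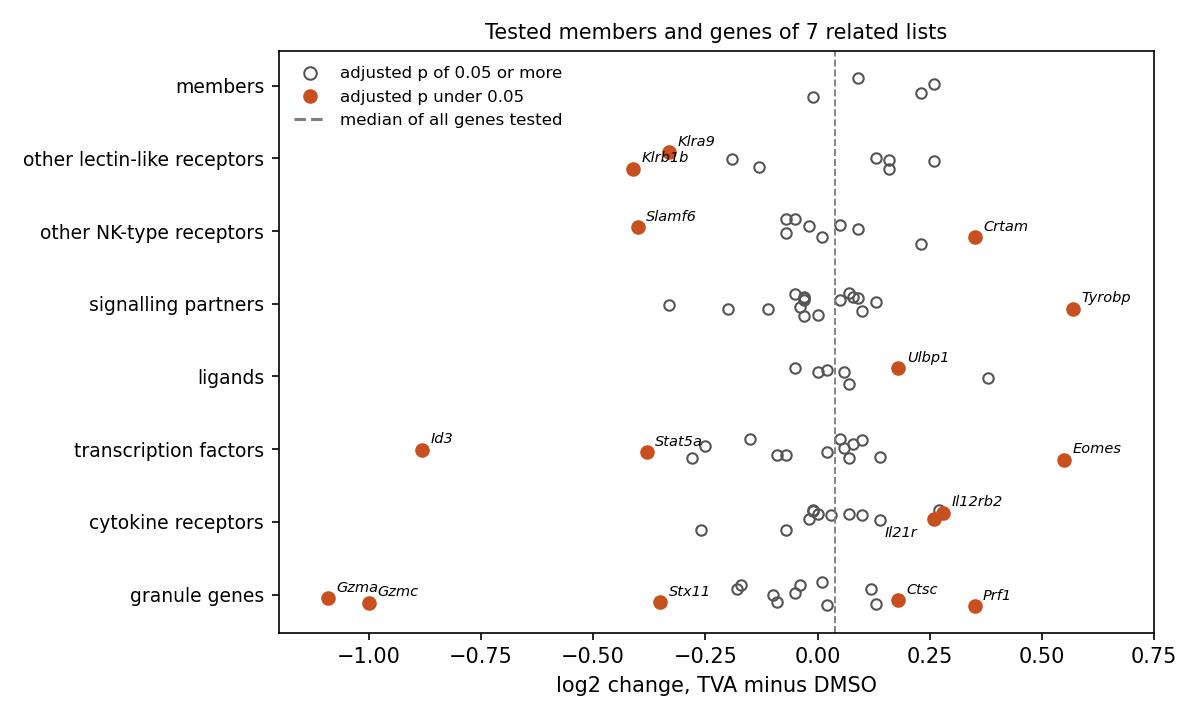
Log2 change (TVA minus DMSO) of the 4 tested genes described here and of the tested genes of 7 related lists, with filled points for an adjusted p under 0.05 and a dashed line at the median of all genes tested. None of the 4 is filled, and filled points lie on both sides of the line in the lists of other NK-type receptors, transcription factors and granule genes.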

How the data were processed

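The authors deposited 1 table of TPM per gene symbol for the 6 libraries, with 2 decimals. The labels name a SMARTER kit for library preparation, and the submitters' processing notes name STAR, RSEM and mm10 without versions. TPM sums to the same total in each library, so depth is unknown and a value of 0 means only that a gene is listed at 0. Groups and replicate numbers came from the sample titles.

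Values were compared as log2(TPM + 1) with limma 3.58.1 in R 4.3.3 (trend of variance with expression, two-sided, Benjamini-Hochberg adjustment over 10866 genes, threshold 0.05), and the code was tested on simulated data. The members and gene lists were chosen with earlier results of these data known. From each list, genes with an adjusted p under 0.05 were named, at most 6 by smallest p. H2-T23, Hcst, Gzmb and Lyz2 were named after their values were seen. Positions and upstream sequences are from RefSeq GRCm38.p6, and shared 50-base stretches and GC content from GENCODE transcripts. Of the symbols, 99.2% matched RefSeq. Motifs were searched in 250 bases before the start. Alternatives were a pseudocount of 0.1, all genes above 0 TPM, a mean of at least 10 TPM, other scalings, no variance trend, a replicate block, a loess GC correction and leaving out each library. Replicate numbers were not taken as pairs, because the paper names only an unpaired comparison of groups. Deviations of same-numbered libraries had correlations of 0.157, 0.0348 and -0.0767. With 3 libraries per group these cannot show whether the libraries were paired. Libraries were left out with the set of 10866 genes kept, a choice made after the counts with the filter reapplied had been seen, and both are given.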

Additional observations from a re-analysis of the deposited data

How the results depend on the processing

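Of the 8 genes, 0 passed the adjusted limma threshold in any setting except without DMSO replicate 2, when 2 did (Klrc1 and Nkg7), so leaving out a library gave 0 to 2. Over 14 alternatives the adjusted p ranged from 0.0364 to 0.21 for Klrc1, 0.00151 to 0.198 for Nkg7, 0.179 to 0.878 for Klrk1 and 0.179 to 0.965 for Klrd1. The sign of Klrd1 turned without single libraries (range -0.091 to 0.036; 0.014, 0.036 and 0.01 where it turned), and that of Klrk1 with a GC correction (-0.0089). The cause was not tested.

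Counts over all genes moved more. Of 10866 genes 925 were called, 574 of them higher (62.1%). With all genes above 0 TPM, 494 were called and 270 were higher. With a mean of at least 10 TPM, 608 were called. With a replicate block, 218 were called and 93 were higher. Median-of-ratios scaling gave 292 higher genes (38.7% of calls) and quantile normalization 360 (46.4%). Leaving out 1 library gave 102 to 2242 calls, 38 to 1223 of them higher, with the highest without DMSO replicate 2. With the filter reapplied to the 5 libraries left, a comparison added after seeing the data, the range was 95 to 2211, with 33 to 1217 higher and the same 0 to 2 of the 8 genes. Of 20 named genes, Crtam, Slamf6, Eomes, Id3, Gzma and Gzmc passed in every alternative that could be fitted, while Ulbp1, Ctsc and Klra9 passed in 3 each, Klrb1b in 4, Tyrobp in 7, Prf1 and Stx11 in 8, Il12rb2 in 10, and Il21r and Stat5a in 11. The replicate block changed no call of the 8 genes. Depth is unknown, so the counting error of values near or below 1 TPM, Klrb1b, Klra9 and H60b included, cannot be given.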

Other observations

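In the ligand and signalling lists, genes besides H2-T23 had groups that did not overlap and no call. They were Clec2d, H60b and Ptpn6, given below, and B2m, Zap70, Pik3r1 and Inpp5d (limma adjusted p of 0.281, 0.117, 0.294 and 0.245). Zap70 and Ptpn6 were lower under TVA and the others higher. TVA values above all DMSO values held for 4 of 7 tested ligand genes and 3 of 17 tested signalling partners, against 27.3% of all genes tested. Clec2d, which encodes a ligand of NKR-P1 receptors, was at 82.74, 114.91 and 104.21 TPM in the DMSO libraries and at 128.31, 129.18 and 132.37 TPM in the TVA libraries (adjusted p = 0.0622). H60b, which encodes an NKG2D ligand, was at 0.25, 0.4 and 0.24 against 1.01, 0.51 and 1.08 TPM, below the filter and not tested. Ptpn6, which encodes the phosphatase SHP-1 that inhibitory receptors recruit, was at 222.42, 206.62 and 197.51 against 178.89, 178.49 and 188.78 TPM (limma adjusted p = 0.0555). The genes of this paragraph were picked after their values were seen.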
